A study of Drosophila melanogaster with 3 samples.

Results

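The 10 genes hang, pad, grau, wek, trem, ouib, nom, Zif, Meics and ranshi, all members of the ZAD zinc finger family, were examined for binding of D19A, another protein of that family. They were taken by name, and all 10 were found among the 13945 protein-coding genes of the annotation on the 6 chromosome arms used. For each, the ChIP-seq summits in the gene or within 5 kb of either end were collected from every peak list. The data are peaks from whole Drosophila melanogaster embryos aged 0 to 20 h, male and female pooled, of a transgenic line that stably carries D19A with eGFP fused to its C-terminus, immunoprecipitated with an antibody against GFP according to the description. A separate label for the antibody gives D19A instead, so whether native D19A was also precipitated cannot be told from them. The 3 libraries are labelled biological replicates of 1 group, there is no second genotype or treatment, and the promoter that drives the fusion and the state of the native D19A gene are not given in the labels. Each replicate list and the list from the pooled libraries hold 30000 peaks, and the list that passed the authors' irreproducible discovery rate (IDR) step holds 7769. The IDR list was made from the other 4 lists, so it is not independent of them. Each IDR summit near these genes had the same signal value and rank in the pooled list, so those ranks are 1 reading. A place in the IDR list does not by itself mean that a summit was strong in every replicate. Signal values rank peaks within a list, with rank 1 the strongest, and because the read depth is unknown no rank was converted to occupancy. All 3 replicate lists were called against 1 shared control file, so its noise is common to them.

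ZAD proteins carry a zinc-binding domain at the N-terminus, through which they pair with one another, followed by C2H2 zinc fingers, most of which contact DNA. The family expanded greatly in insects, and many of its genes sit in clusters of related copies. Members with known roles act in very different processes, among them oogenesis, meiosis, hormone synthesis, neural stem cells and chromatin architecture.

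Of the 4 IDR summits near these genes, 3 were nearest to the TSS of another gene. That share was not computed for the windows of all protein-coding genes, which held a median of 4.0 other protein-coding genes. An IDR summit lay in the window of 3 of the 10 genes, hang, pad and wek, where 52.0% of all protein-coding genes had one. Within 250 bp of a transcription start site (TSS), 2 of the 10 had an IDR summit, hang and pad, against 15.3% of all protein-coding genes. The pooled list, which reaches weaker peaks, marked 6 of the windows (hang, pad, wek, Zif, Meics and ranshi; 67.6% of all protein-coding genes) and 3 of the promoters (hang, pad and Meics; 31.0%). The shares describe the 10 genes, and no test was applied. The windows held 4 IDR summits, of which 1 was nearest to the TSS of a member, that of hang. The strongest of the 4 ranked 2045, and none was among the 1942 strongest IDR peaks.

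**Figure D1:**
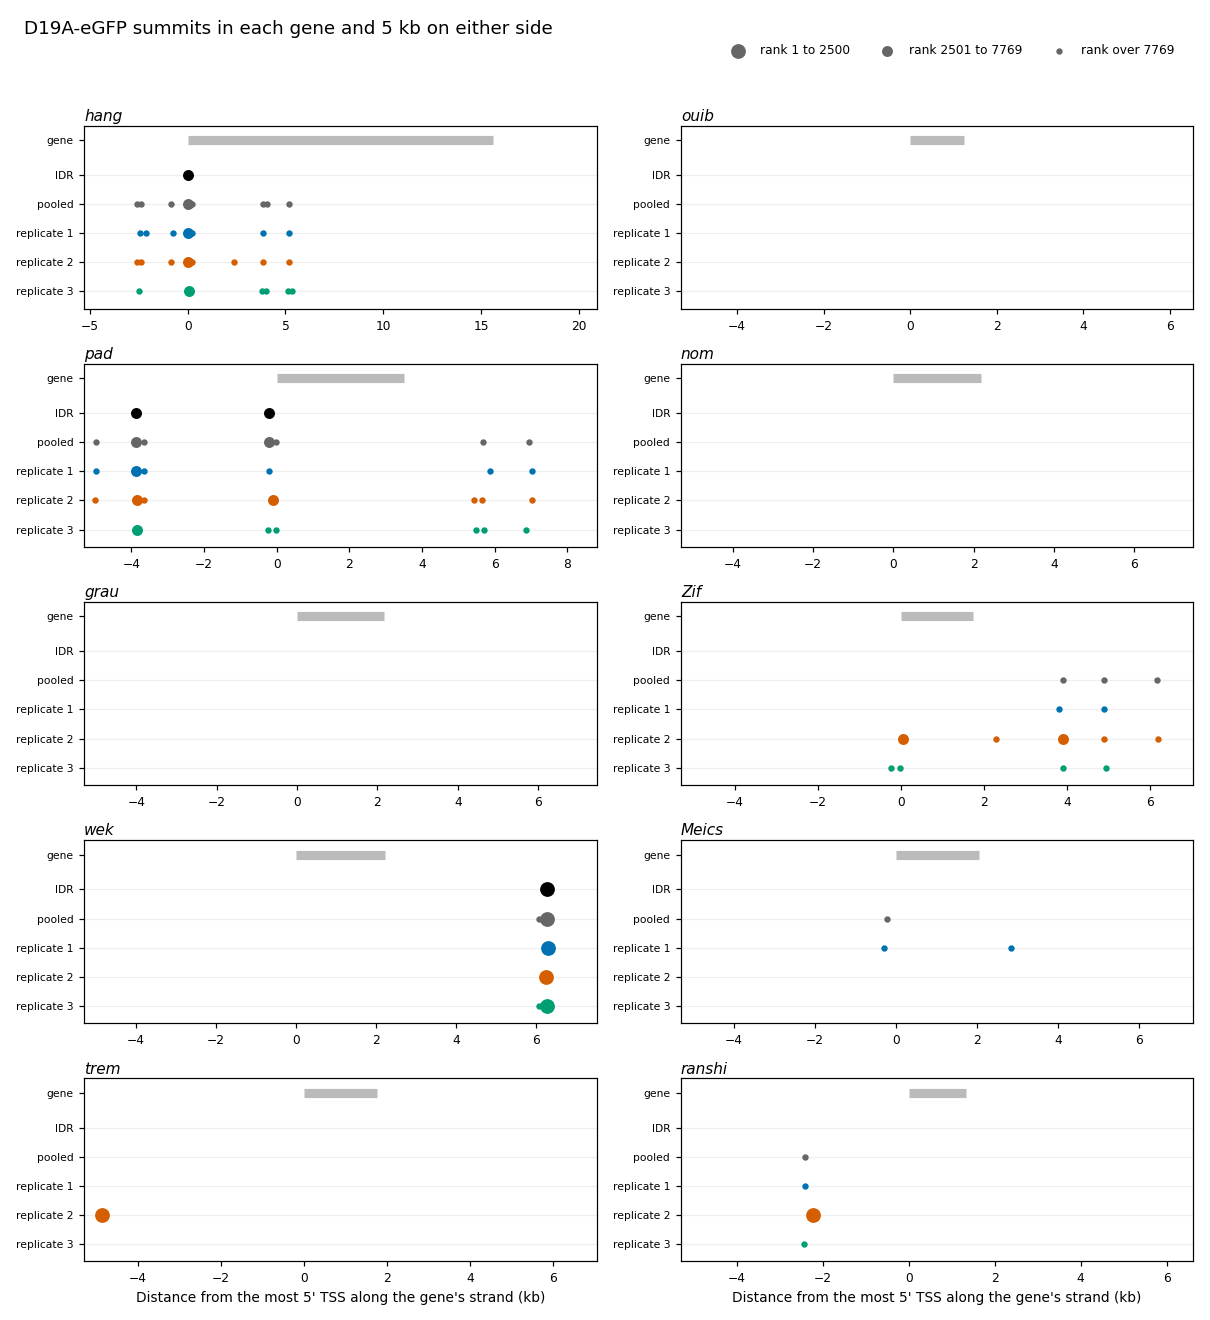
Summits in each of the 10 genes and 5 kb on either side, as distance in kb from the most 5′ TSS along the gene's strand (grey bar, gene), with 1 lane for each peak list and larger points for stronger ranks. The windows of grau, ouib and nom are empty in every lane, hang and pad hold most of the summits, and trem has a single summit in replicate 2.

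Gene length bears on such counts, since a longer window holds more summits. Among the 7759 protein-coding genes spanning at most 2500 bp, 43.6% had an IDR summit in the window, and of the 8 members of that length 1 did (wek). Among the 3482 genes over 5000 bp the share was 69.0%, and the only member of that length, hang, had one. The median span of the members was 2102 bp, close to the 2166 bp of all protein-coding genes, with a range from 1252 bp (ouib) to 15624 bp (hang). The merged windows covered 115.6 kb and held 34.6 IDR summits per Mb (95% Poisson interval 9.43 to 88.6, for counting error only), against 63.5 per Mb in the windows of all protein-coding genes, a value inside that interval. In the pooled list the density was 190.0 per Mb (119.0 to 288.0), against 239.0.

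hang, which encodes a large zinc finger protein needed for normal ethanol tolerance, had the only IDR summit placed on a member's own start site. The gene lies on the X chromosome (chrX:16422831-16438454, dm6, plus strand, FBgn0026575) and its 3 transcripts share 1 TSS. The IDR peak (chrX:16422615-16423058) had its summit 6 bp downstream of that TSS, in the 5′ UTR, and ranked 6356 in the IDR and pooled lists. It ranked 6168, 6792 and 7046 in replicates 1, 2 and 3 (6670 ± 452, SD, n = 3), with signal values of 93.8, 144.7 and 78.7. The summit lay 6, 27 and 77 bp downstream of the TSS in replicates 1, 2 and 3, and its rank was alike in all of them.

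The rest of the hang locus carried weak summits outside the IDR list. The pooled list held 8 summits in the window, and beside the start site the highest ranked 9311, in an intron 5201 bp downstream of the TSS, with replicate ranks of 8094, 8486 and 13977. Another intronic summit, 3840 bp downstream, ranked 12046 in the pooled list and 9161, 17062 and 13290 in the replicates. Upstream, 3 pooled summits lay at TSSs of AnxB11, an annexin gene that is transcribed away from hang and starts 566 bp from it, with ranks of 11603, 19589 and 24490.

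Sequence at the hang summit departed from that under most D19A peaks. The 101 bp centred on it were 46.5% A or T, while IDR summits had a median of 69.3% (middle 50% of values, 61.4% to 74.3%), and 2.68% of the 7769 IDR summit windows were as low. Those IDR summits include many away from promoters, and promoter summits were not compared separately. The 100 bp upstream of protein-coding TSSs had a median of 59.0%. The 100 bases upstream of the hang TSS, on the plus strand (chrX:16422731-16422830), are shown because they form the upstream side of that peak, with runs of at least 6 A or T bases in capitals.
hang, 100 bases upstream of the TSS: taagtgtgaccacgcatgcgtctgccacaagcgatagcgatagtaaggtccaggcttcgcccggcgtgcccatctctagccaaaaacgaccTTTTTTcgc
This stretch holds, on the minus strand, the letters GGTCACAC of motif 1, the core promoter element that the ZAD protein M1BP binds. The letters were present on either strand in 3.02% of the 13945 protein-coding upstream windows of that length. They were absent from the 101 bp centred on the hang summit, and were present in 0.515% of IDR summit windows.

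pad, which represses proneural genes in bristle formation, had 2 IDR summits, each nearer to the TSS of another gene. The gene lies on 3R (chr3R:16342318-16345829, plus strand, FBgn0038418) with 1 TSS. The promoter summit (peak chr3R:16341875-16342318) lay 221 bp upstream of pad and 109 bp from the TSS of SF2, which encodes a splicing factor of the SR family and starts 330 bp from pad in the opposite direction. It ranked 5815 in the IDR and pooled lists. In replicate 1 the summit lay 215 bp upstream of pad and ranked 9166, in replicate 2 it lay 102 bp upstream and ranked 4265, and in replicate 3 it lay 230 bp upstream and ranked 23040. The replicate 2 summit was nearer to pad than to SF2, and it alone ranked above 7769, while replicate 3 had a second summit 24 bp upstream of pad, of rank 29264. A promoter summit of pad was lost when support within 100 bp among the 7769 strongest peaks was asked of any 2 replicates, that is without any 1 of the 3.

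The stronger summit in the pad window was more regular. It lay 3860 bp upstream of pad in the 5′ UTR of Sulf1, 85 bp from a TSS of that gene, which encodes a sulfatase that trims heparan sulfate. It ranked 4225 in the IDR list and 4670, 5909 and 3812 in replicates 1, 2 and 3 (4800 ± 1050, SD, n = 3), with signal values of 118.1, 165.2 and 124.9. Downstream of pad, weaker pooled summits ranked 13958 and 15508, the first in an intron of CG14879 and the second 42 bp from its TSS.

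The 101 bp at the summit between pad and SF2 (chr3R:16342047-16342147, plus strand), shown because 2 genes share them, were 65.3% A or T.
pad and SF2 summit: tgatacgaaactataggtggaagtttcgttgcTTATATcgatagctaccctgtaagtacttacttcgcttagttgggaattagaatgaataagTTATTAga
Capitals again mark runs of A or T. The window holds TATCGATA, the DNA replication-related element (DRE) of housekeeping promoters, partly inside its first run in capitals. DRE was found in 0.695% of IDR summit windows and in 6.2% of the upstream windows of protein-coding genes.

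wek, which encodes an adaptor that links the receptor Toll to MyD88, had the strongest IDR summit of the 10 windows, but it was far from the gene. The gene lies on 2L (chr2L:15766133-15768349, minus strand, FBgn0001990). The IDR peak (chr2L:15761919-15762256) had its summit 4046 bp beyond the 3′ end of wek, in an intron of Gli and 321 bp from the nearest TSS, that of Gli. Gli encodes Gliotactin, a transmembrane protein of tricellular junctions. The summit ranked 2045 in the IDR list and 2252, 1867 and 2357 in replicates 1, 2 and 3 (2160 ± 258, SD, n = 3), with signal values of 211.4, 429.7 and 181.1. A weaker summit 120 bp from the TSS of Gli ranked 26746 in the pooled list and 9509 in replicate 3. No list had a summit within 250 bp of the TSS of wek.

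The window at this summit (chr2L:15762037-15762137, plus strand) was 81.2% A or T, a share reached or exceeded in 5.21% of IDR summit windows, and is shown for contrast with hang and pad.
wek window, summit in Gli: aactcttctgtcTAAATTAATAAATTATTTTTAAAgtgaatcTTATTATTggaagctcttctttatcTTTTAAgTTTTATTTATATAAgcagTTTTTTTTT
It has 5 runs of A or T of at least 6 bases, the longest of 23. Over the 4 IDR summits of the 10 genes the share of A or T ran from 46.5% to 81.2%.

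**Figure D2:**
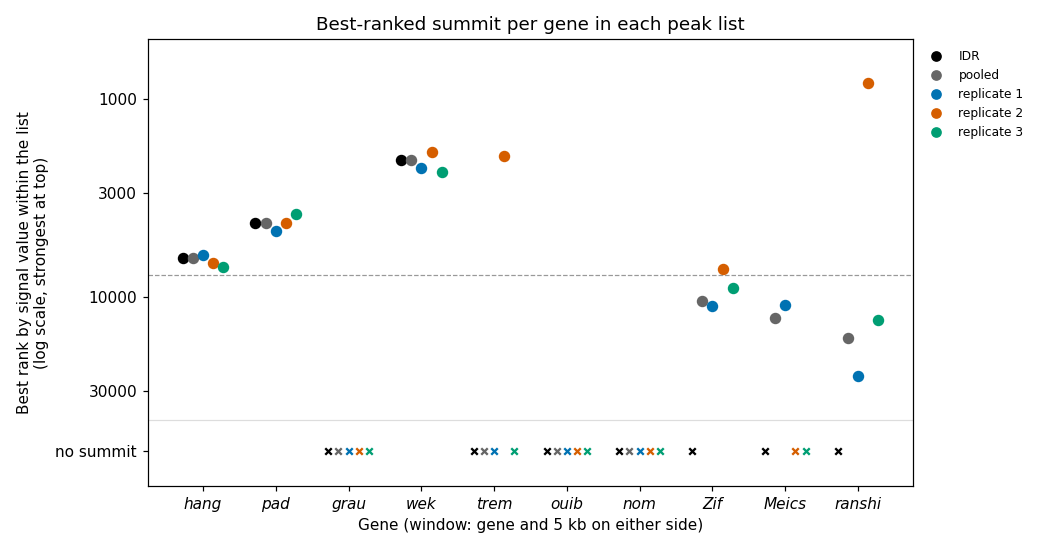
Best rank by signal value (log axis, strongest at the top) among the summits of each gene's window in the IDR, pooled and 3 replicate lists; crosses mark windows with no summit in that list, and the dashed line is rank 7769. The 5 lists lie close together for hang and wek at 1 summit each; for pad the best summit of replicate 2 (rank 4265) is at the promoter and that of the other lists is at Sulf1. In the windows of trem, Zif and ranshi replicate 2 alone has a summit above the line.

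Replicate 2 added 3 further windows at a fixed cut of rank. Among the 7769 strongest peaks of each replicate, summits fell in 3 of the 10 windows in replicate 1 (hang, pad and wek; 51.7% of all protein-coding genes), in 6 in replicate 2 (55.3%) and in 3 in replicate 3 (49.5%), a mean of 4.0 ± 1.73 (SD, n = 3). The 3 windows added by replicate 2 were those of trem, Zif and ranshi, and none of these had an IDR summit. For Zif the replicate 2 ranks, 7268 and 7606, were just inside the cut, and replicate 3 had a promoter summit of rank 9070.

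The rank differed widely between replicates in the window of ranshi, a gene of 1327 bp on 3R (chr3R:8728367-8729693, minus strand, FBgn0037620). A peak 2215 bp upstream of it (chr3R:8731660-8732126) ranked 836 in replicate 2, with a signal value of 754.6. The peaks that overlap it ranked 25079 in replicate 1 (signal value 25.9), 13085 in replicate 3 (49.0) and 16159 in the pooled list, with summits 2419, 2433 and 2422 bp upstream of ranshi. The peaks lie at the space between M1BP, the ZAD gene next to ranshi, and CG8202, which start 393 bp apart in opposite directions. The replicate 2 summit was 183 bp from the TSS of CG8202, and those of the other lists lay at 21 to 35 bp from it.

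The replicate 2 summit fell in nearly pure A and T sequence, shown with its runs of A or T in capitals (chr3R:8731858-8731958, plus strand).
ranshi window, summit between M1BP and CG8202: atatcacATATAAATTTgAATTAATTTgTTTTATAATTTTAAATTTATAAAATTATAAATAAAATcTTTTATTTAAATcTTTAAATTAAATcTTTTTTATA
It was 93.1% A or T, with a longest run of 37 bases. Of the 7769 strongest summit windows of replicate 2, 1 was that rich in A or T, namely this one, and of the 7769 IDR summit windows 0 were. Whether base composition has a part in the rank of this peak was not tested.

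In the window of trem, which is needed to place the breaks that start meiotic recombination, a peak of replicate 2 (chr3R:20036007-20036301) ranked 1958 with a signal value of 416.0, and no peak of replicates 1 and 3 or of the pooled list overlapped it. Its summit lay 4870 bp upstream of trem (chr3R:20029560-20031309, minus strand, FBgn0038767) and 123 bp from a TSS of Regnase-1, an RNA-degrading enzyme gene. Such peaks were rare. Among the 2000 strongest peaks of replicate 2, 27 (1.35%) overlapped no pooled peak, against 3 in replicate 1 (0.15%) and 4 in replicate 3 (0.2%). Its 101 bp were 59.4% A or T, below the median of IDR summits, and are given because replicate 2 alone has the peak (chr3R:20036129-20036229, plus strand).
trem window, replicate 2 summit: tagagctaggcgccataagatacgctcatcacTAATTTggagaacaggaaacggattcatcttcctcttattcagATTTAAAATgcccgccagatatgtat

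Zif, a factor of neural stem cells that controls the polarity kinase aPKC, differed between replicates at its own start site. The gene lies on 3R (chr3R:6457088-6458822, plus strand, FBgn0037446), with 2 TSSs. Replicate 2 had a summit 16 bp from a TSS of Zif, of rank 7268 (signal value 136.5). Replicate 3 had one 32 bp from the TSS, of rank 11904, and another 233 bp upstream, of rank 9070, nearer to the TSS of CG9727, which starts 412 bp from Zif in the opposite direction. Replicate 1 and the pooled list had none there. Downstream of the gene, an intergenic summit 4881 bp from the most 5′ TSS was found in every replicate, with ranks of 11078, 16759 and 12433 (11467 in the pooled list), all below the IDR list. A second, 3896 bp downstream, ranked 10540 in the pooled list, 7606 in replicate 2 and 26562 in replicate 3. The overlapping peak of replicate 1, with its summit 3791 bp downstream, ranked 15357.

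Meics, named for the meiotic central spindle, had a weak promoter summit. The gene lies on 3L (chr3L:13962658-13964702, minus strand, FBgn0025874). The pooled list had a summit 208 bp upstream of its TSS, in the space shared with Nxf3 and ssp2, whose TSSs are 501 bp away, with rank 12756. Replicate 1 had a summit 287 bp upstream, of rank 11045, and another of rank 29207 in a coding exon of CG32137, while replicates 2 and 3 had no summit in the window. The nearest IDR summit was just outside the window, 5194 bp from the gene in an intron of CG32137, with rank 2084. The TSS nearest to that summit was that of Meics, 7238 bp away.

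No list had a summit in the windows of 3 genes. These were grau, which switches on cortex for the completion of female meiosis, ouib, which drives synthesis of the steroid hormone ecdysone, and nom, named for a defect in the mitochondrial derivative of sperm. The nearest IDR summit to grau (chr2R:21009764-21011921, minus strand, FBgn0001133) was 6544 bp away, in an intron of RIC-3, with rank 3279. For ouib (chr3R:8725479-8726730, FBgn0037618) and nom (chr3R:8723174-8725357, FBgn0037617), both on the plus strand, the nearest was the same summit, in an intron of CG9801 with rank 2372, at 19825 bp and 21198 bp. For ranshi it was this summit too, at 16862 bp.

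The genes nom, ouib and ranshi are neighbours in 1 cluster and are not independent observations. The gap between nom and ouib is 122 bp, ranshi lies 1637 bp further on, and M1BP follows 97 bp after ranshi, so that the windows overlap. Across this cluster the overlapping peaks at M1BP and CG8202 held the only summits in any list, and these were within 5 kb of ranshi and M1BP. The pooled summit, in the 5′ UTR of CG8202, was 5385 bp from ouib and 6758 bp from nom.

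Upstream sequences of genes without a promoter summit in any list are shown to set beside that of hang, with runs of A or T in capitals. They are those of ouib (chr3R:8725379-8725478, plus strand), nom (chr3R:8723074-8723173, plus strand) and trem (chr3R:20031310-20031409, minus strand).
ouib, 100 bases upstream of the TSS: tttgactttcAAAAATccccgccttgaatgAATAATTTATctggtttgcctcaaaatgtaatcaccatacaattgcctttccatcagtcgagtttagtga
nom, 100 bases upstream of the TSS: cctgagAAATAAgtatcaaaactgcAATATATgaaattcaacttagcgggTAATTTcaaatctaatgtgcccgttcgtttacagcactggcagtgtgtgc
trem, 100 bases upstream of the TSS: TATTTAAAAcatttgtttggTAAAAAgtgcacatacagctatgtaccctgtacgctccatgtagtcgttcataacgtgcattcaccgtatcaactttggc
They were 64.0%, 61.0% and 61.0% A or T, all above hang at 45.0%. Over the 10 genes the share had a median of 61.0% and reached 70.0% (Zif), and over all protein-coding genes the median was 59.0%. Of the 4 motifs searched on both strands, GGTCACAC was found upstream of hang and grau, the DRE letters upstream of wek, and neither GAGAG, the repeat bound by the GAGA factor, nor AAATATAT upstream of any of the 10. GAGAG was present in 13.2% and AAATATAT in 3.19% of upstream windows of all protein-coding genes.

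**Figure D3:**
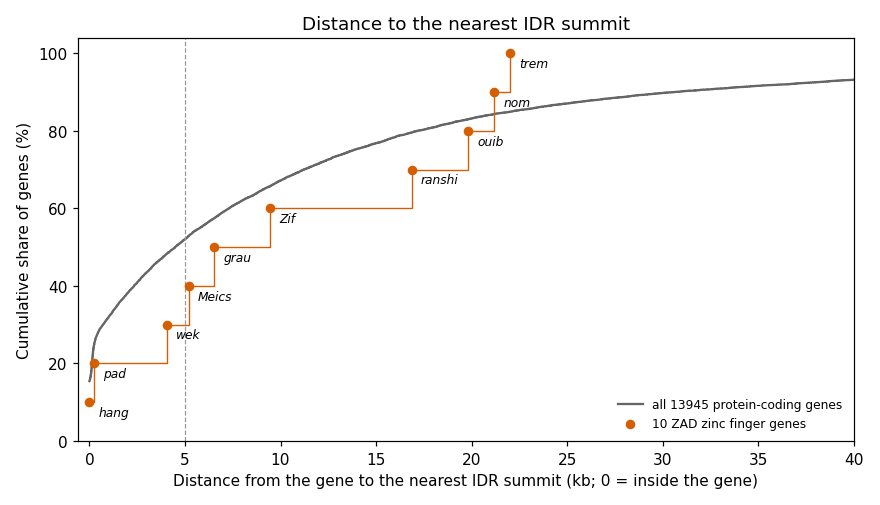
Cumulative share of genes (%) by distance in kb from the gene to the nearest IDR summit, for the 10 ZAD genes (points, named) and all 13945 protein-coding genes (grey line); the dashed line is the 5 kb limit. The members' median was 7992 bp and that of all protein-coding genes 4486 bp.

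Just inside the 5 kb limit was wek at 4046 bp, and just outside were Meics at 5194 bp and grau at 6544 bp, followed by Zif at 9441 bp. trem was the farthest from any IDR summit, 21987 bp from one in an intron of Hs6st. The median distance to the nearest IDR summit was 7992 bp for the 10 genes and 4486 bp for all protein-coding genes, and to the nearest pooled summit 3134 bp and 1028 bp. The surroundings were of usual gene density, with a median of 4.5 other protein-coding genes in the window (1 to 8) against 4.0 for all.

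Of the 22 pooled summits in the windows, 15 belonged to hang and pad. By position, 13 lay within 250 bp of some TSS, 6 in introns and 3 in intergenic sequence. A member's TSS was the nearest for 9 of the 22, and no such share was computed over all genes. A summit within 100 bp was present in all 3 replicates for 8 of the 22, in 2 replicates for 9 and in 1 for 5. Over the whole pooled list, 42.7% of summits had one in all 3 replicates, 32.0% in 2 and 21.4% in 1.

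A further 11 ZAD genes were examined in the same way: D19A, D19B, M1BP, dwg, ZIPIC, pita, Sry-beta, Sry-delta, kipf, Odj and Nnk. An IDR summit lay in the window of 7 of the 11, where the share over all protein-coding genes was 52.0%, and within 250 bp of a TSS of 1, against 15.3%. That 1 was D19A itself, whose summit 174 bp from its TSS ranked 1535. The line also carries D19A as a transgene, and reads from the transgene and the native gene were not told apart here. The 7 windows held 8 distinct IDR summits, since neighbours share them. D19A and D19B share 4, the strongest of rank 468. That summit lay 14 bp from the TSS of CG43293 and 255 bp from that of D19B, just outside the 250 bp limit. Sry-beta and Sry-delta share 1, of rank 1778, that lay 122 bp from the TSS of the ribosomal protein gene RpL32. The summits near Odj (rank 2484), Nnk (rank 4452) and pita (rank 6024) were nearest to TSSs of Alg1, CG7379 and wmd. M1BP, dwg, ZIPIC and kipf had no IDR summit in the window. Apart from hang, D19A was the only ZAD gene examined whose own TSS was the nearest to an IDR summit in its window. That share was not computed over all protein-coding genes, so whether it is low for ZAD genes cannot be told.

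**Figure D4:**
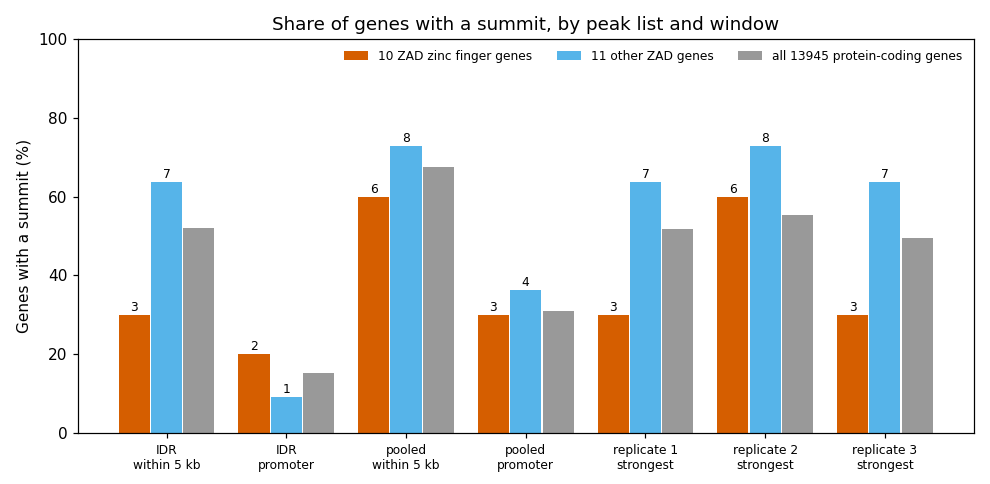
Share of genes (%) with a summit in the gene or within 5 kb, or within 250 bp of a TSS (promoter), for the 10 genes, 11 other ZAD genes and all 13945 protein-coding genes, in each list; the replicate bars use the 7769 strongest peaks and the 5 kb window, and numbers above bars are genes. The 10 genes have 3 marked windows in replicates 1 and 3 and 6 in replicate 2.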

How the data were processed

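The deposited text records name dm6 as the build and give the sources of each list: each replicate list came from 1 library and a control file, the pooled list from the 3 libraries and that file, and the IDR list from the other 4. The sources used here name no aligner, peak caller or threshold for the IDR step. Signal values, −log10 q-values and summit offsets are as the authors deposited them. The q-values stood at their ceiling for every IDR peak, so signal gave the ranks. Fragments of 200 to 800 bp were used, per the labels.

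Gene models were Ensembl release 115 and sequence the RefSeq assembly with dm6 coordinates. All 10 annotated start codons read ATG there. TSSs of all transcripts were used. Summits were matched within 100 bp. Counting in windows was tested on simulated data. Tools were Python 3.11.15, pandas 2.3.3, NumPy 2.4.6 and SciPy 1.17.1. With 1 group there was no comparison between groups and no test. The genes, the lists and the motifs were chosen with earlier results of these data known. All 10 members, the genes nearest to their summits and close neighbours were named. Printed windows hold no annotated exon.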

Additional observations from a re-analysis of the deposited data

How the results depend on the processing

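The IDR count of 3 genes was the same with peak intervals in place of summits, where no share over all genes was computed. It was also 3 with IDR summits supported by every replicate (40.4% of all protein-coding genes). Asking that support of only 2 replicates, with each left out in turn, gave 3 again (42.1% to 45.6%). The IDR list itself was not remade without a replicate. The count was 1 for the gene body alone (15.4%) and 6 with 10 kb on each side (67.2%). For the stronger 3884 IDR peaks it was 1 (wek, 37.1%) and for the strongest 1942 it was 0 (23.0%). It was 2 (hang and Meics) where the member's TSS had to be the nearest to a summit at any distance, with no share computed. The 4 IDR summits became 1 for the gene body, 2 with 2 kb, 10 with 10 kb, 1 for the stronger 3884 and 0 for the strongest 1942. The 2 genes with a promoter summit became 1 within 100 bp (5.46%) and 0 in either stronger part (7.82% and 4.43%). They became 1 (hang) when support was asked of only 2 replicates, with each left out in turn (9.84% to 11.7%). This was because the pad summit shifts by over 100 bp in replicate 2 and is outside the 7769 strongest of replicates 1 and 3. The 6 pooled genes became 1 for the gene body (27.9%), 3 with 2 kb (55.5%) and 9 with 10 kb (80.1%). With a summit within 100 bp asked of 2 replicates, they became 4 without replicate 1 (59.9%), 5 without replicate 2 (59.3%) and 4 without replicate 3 (62.3%). Meics was lost in each of these settings, and ranshi in those without replicates 1 and 3. The mean of 4.0 genes per replicate became 2.0 with the strongest 3884 (36.9%, the mean of the replicates). The mean rank of the strongest IDR summit in each of the hang, pad and wek windows was the same when intervals were matched by overlap, while that of the pad promoter summit went from 16100 (2 replicates) to 12200 (3 replicates). No paired analysis was possible because there is 1 group. Read depth is unknown, so a window with no summit has none in these lists, and weaker binding was not measured.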
